A study of Mus musculus with 7 samples.

Results

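The 10 genes described here encode receptors of natural killer (NK) cells, the lymphocytes that kill stressed, infected or transformed cells, and were followed in single-cell RNA libraries of the mouse pancreas. They are *Ncr1*, *Klrk1*, *Klrb1c*, *Klra8*, *Cd226*, *Klra3*, *Klra9*, *Klrc1*, *Klrd1* and *Klre1*, 10 of the 33864 genes in the count tables, and were taken as a fixed list by name. The list was chosen with earlier results of these data known. All 10 have a row in each of the 3 tables, of WT, i4F and caerulein (CER) mice. Their counts were read in each of 7 libraries, over all 58473 cells and over the 1722 cells whose deposited label starts with NK.

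Each library came from the pancreas of 1 mouse, with the strain labelled C57BL/6, at 2 months of age, and the study's methods give the background of the i4F line as C57BL/6J.Ola.Hsd. The 2 WT mice and the 3 i4F mice drank doxycycline at 1 mg/ml for 7 days, and the i4F mice (genotype i4F-B) carry a ubiquitous transgene that doxycycline switches on to express Oct4, Sox2, Klf4 and c-Myc. The 2 CER mice were wild type and received caerulein, a secretagogue that causes mild acute pancreatitis, at 100 µg/kg in 7 injections a day on 2 days. Their labels name no doxycycline, so CER and WT mice differ in both agents, and no i4F mouse without doxycycline is among the libraries. The pancreas was digested to free all its cell types, red blood cells were lysed, and the labels name no sort.

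An NK cell weighs signals from activating and inhibitory receptors on its surface. Activating receptors such as NKp46 (*Ncr1*) and NKG2D (*Klrk1*) bind ligands of stressed or infected cells and signal through adaptor proteins. Inhibitory receptors of the Ly49 family and the NKG2A chain (*Klrc1*) bind MHC class I molecules of healthy cells and recruit phosphatases. *Klrd1* (CD94) and *Klre1* encode chains that work only as partners of other receptor chains, and several of these receptors are also found on subsets of T cells and innate lymphoid cells.

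Of the 10 genes, 8 lie on 1 stretch of chromosome 6 of 1559 kb, the NK gene complex, and *Ncr1* lies on chromosome 7 (GRCm38). In order along the chromosome these are *Klrb1c*, *Klre1*, *Klrd1*, *Klrk1*, *Klrc1*, *Klra8*, *Klra9* and *Klra3*, from chr6:128778485 to chr6:130337574. The 3 *Klra* (Ly49) genes are close copies of each other, and *Klra8* is the only activating one among them. The first 60 coding bases are printed here to show both points, from the GENCODE vM21 transcripts, with capitals at the 11 positions where the 3 genes are not all alike.
Klra3 (chr6:130335740-130335799, minus strand): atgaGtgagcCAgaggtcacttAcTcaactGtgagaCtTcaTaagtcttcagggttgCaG
Klra9 (chr6:130191242-130191301, minus strand): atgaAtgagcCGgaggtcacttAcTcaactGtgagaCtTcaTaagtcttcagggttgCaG
Klra8 (chr6:130128101-130128160, minus strand): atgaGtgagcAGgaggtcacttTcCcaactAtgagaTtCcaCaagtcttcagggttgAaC
In this stretch *Klra3* and *Klra9*, both inhibitory, differed at 2 positions, and *Klra8* differed from each of them at 10. One of these is A23T, with the base of *Klra3* first, then the position counted from 1 at the A of the start codon, then the base of *Klra8*. Inhibitory Ly49 receptors carry a tyrosine-based inhibitory motif near the start of the protein, which Ly49H, the product of *Klra8*, is known to lack.

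Over the whole coding sequence of 798 bases, *Klra3* and *Klra9* were 95.9% identical, *Klra8* and *Klra9* 91.9%, and *Klra3* and *Klra8* 90.5%. The assay reads the 3′ end of transcripts. Of the 251 windows of 50 bases in the last 300 bases of the transcript, 40.6% in *Klra3*, 40.6% in *Klra9* and 19.1% in *Klra8* also occur in transcripts of other *Klra* genes, and 80.1% in *Klrc1* also occur in *Klrc2*. For *Ncr1*, *Klrk1*, *Klrb1c*, *Klre1* and *Klrd1* no window was shared. The division of UMIs among the *Klra* genes, and between *Klrc1* and *Klrc2*, is therefore less certain than the values of the other members. On the same strand, *Klrb1c* overlaps the gene model Gm44511, and no other member on chromosomes 6 and 7 overlaps an annotated gene.

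The stretches upstream of *Ncr1* and *Klrk1* are shown because the transcripts of the former lay mostly under the NK label and those of the latter also lay under others. Each holds the 250 bases before the start site in RefSeq (GRCm38.p6), with capitals at matches to TGTGGT, the core letters bound by RUNX factors, on either strand.
Ncr1 (chr7:4337465-4337714, plus strand): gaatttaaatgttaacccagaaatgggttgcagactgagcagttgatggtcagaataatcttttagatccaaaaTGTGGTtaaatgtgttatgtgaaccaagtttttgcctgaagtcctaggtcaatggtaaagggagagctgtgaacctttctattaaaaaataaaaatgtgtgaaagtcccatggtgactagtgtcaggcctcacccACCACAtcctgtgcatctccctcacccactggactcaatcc
Klrk1 (chr6:129623865-129624114, minus strand): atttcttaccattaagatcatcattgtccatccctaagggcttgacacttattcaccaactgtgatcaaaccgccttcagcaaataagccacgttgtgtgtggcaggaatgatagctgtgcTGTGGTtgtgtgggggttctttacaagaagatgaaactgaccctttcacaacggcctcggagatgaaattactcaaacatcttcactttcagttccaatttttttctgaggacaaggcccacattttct
These letters were in the stretch of 5 of the 8 members with an entry, namely *Ncr1*, *Klrk1*, *Klrb1c*, *Klre1* and *Klrc1*, and in 14% of the 32851 stretches of the table. The stretches of *Klrb1c* and *Klre1* lie inside the annotated span of their own gene, and of the 6 that lie before it 3 held these letters. AGGAAG, a core of ETS factors, was in that of *Klrb1c*, again inside the gene, and in no other member's, against 29.5% of all stretches, and GGTGTGA, a T-box core, was in none of the 8, against 3.33%. The motifs do not overlap each other in the stretches shown, and a match of letters is not a bound site.

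The libraries held 4327 to 15138 cells and 15469018 to 64784216 UMIs (unique molecular identifiers, 1 per captured mRNA molecule). Pairs of libraries shared 3 to 39 cell barcodes, at most 0.411% of the smaller library. Library i4F 3 stood apart from i4F 1 and i4F 2, with 13.0% of its cells under the NK label against 1.98% and 4.16%, and a median of 1248.5 UMIs per cell against 4247 and 2512.5. The NK-labelled cells numbered 72 and 121 in the WT mice (label NKs_Tcells) and 194, 342 and 993 in the i4F mice (label NK_T). They had median UMIs of 2247.5 and 1667 in WT and 782, 759.5 and 1186 in i4F. The label holds NK cells, T cells and cells with transcripts of type 2 innate lymphoid cells together: 1264 of the 1722 cells had a UMI of *Cd3d*, *Cd3e* or *Cd3g*, the CD3 chains of the T cell receptor. The CER metadata hold no label that starts with NK.

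The first question was which deposited labels hold the transcripts. *Ncr1*, *Klra8* and *Klra9* lay mostly under the NK labels of WT and i4F mice, whereas *Klrk1* and *Klrd1* also had many UMIs under a second label. For *Ncr1* the NK-labelled cells held 43 of 43 and 39 of 41 UMIs in WT and 4 of 6, 1 of 1 and 27 of 29 in i4F. For *Klrk1* they held 93 of 137 and 69 of 116 UMIs in WT and 34 of 121, 13 of 66 and 83 of 137 in i4F. In i4F 2 the second label held 26 of the 66 *Klrk1* UMIs and Macrophages_1 a further 22. For *Klrd1* the NK-labelled cells held 46 of 89 and 32 of 81 in WT and 18 of 190, 35 of 83 and 111 of 182 in i4F. The NK share of *Klrd1* UMIs thus ran from 9.47% (95% exact binomial interval 5.71 to 14.6%) in i4F 1 to 61.0% (53.5 to 68.1%) in i4F 3.

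**Figure D1:**
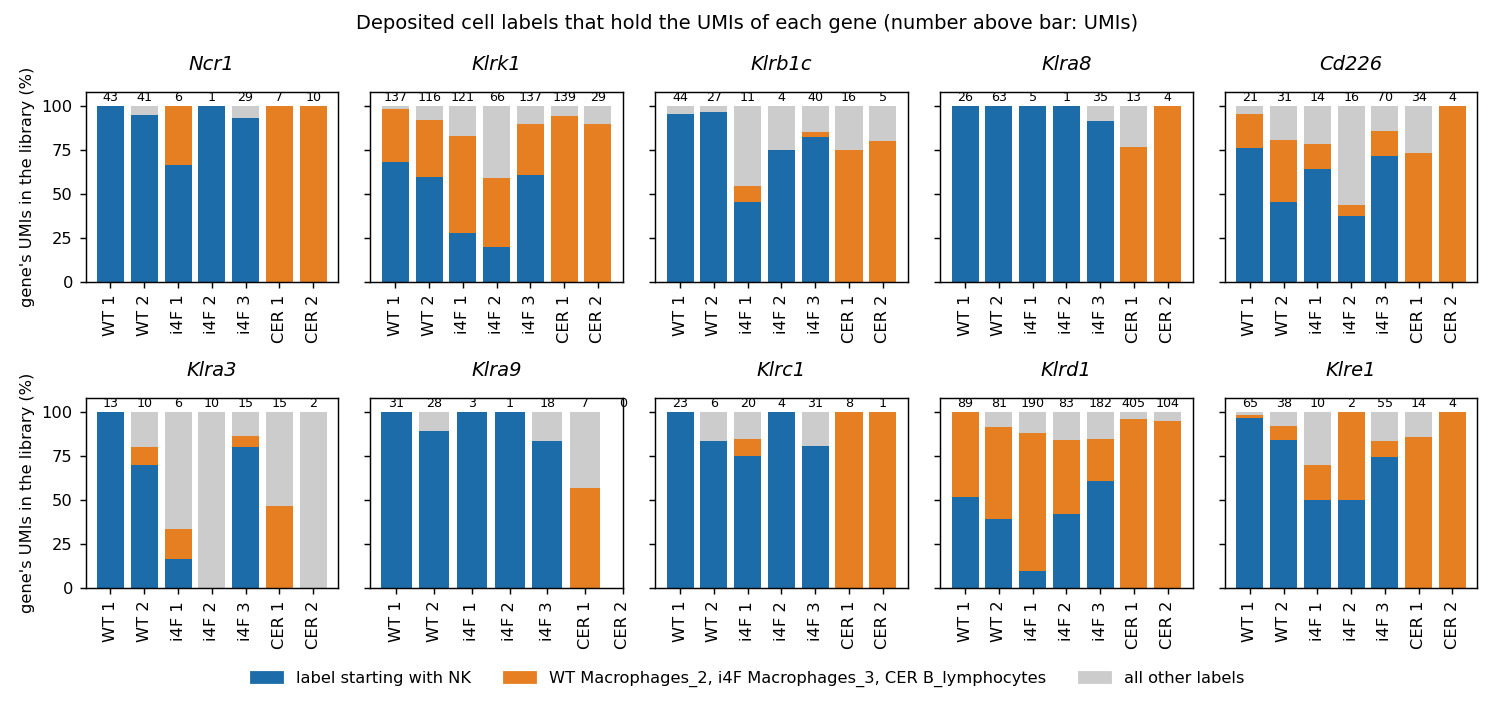
Percent of each gene's UMIs (y axis) that lay under the label starting with NK, under 1 further label per condition and under all others, for each of the 7 libraries (x axis), with the gene's UMIs in the library above each bar. *Ncr1* and *Klra8* lie mostly under the NK label in WT and i4F, *Klrk1* and *Klrd1* also lie under the further label and, for *Klrk1* in i4F 2, under others, and the CER libraries have no NK label.

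The second label was Macrophages_2 in WT, Macrophages_3 in i4F and B_lymphocytes in CER. Under it *Klrk1* stood at 114 and 81.0 CPM (UMIs per 1e6 UMIs of the cells summed) in WT, 107, 119 and 38.6 in i4F, and 48.2 and 45.8 in CER. *Klrd1* stood there at 116 and 89.6 CPM in WT, 242, 160.1 and 41.5 in i4F, and 143 and 174 in CER. In i4F 1 and i4F 2 this was above the 92.7 and 116 CPM of *Klrd1* in NK-labelled cells. *Ncr1* was at 0 under this label in both WT mice, and had 2, 0 and 0 UMIs there in i4F 1, 2 and 3.

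The B_lymphocytes label of the CER mice was low in the B cell transcript *Cd79a*, which encodes a chain of the B cell receptor. It stood at 50 and 58 CPM there, against 3080 and 2352 CPM under the same label in WT. *H2-Ab1*, an MHC class II gene, was at 7072 and 7547 CPM under the CER label and at 6267 to 15360 CPM under the WT and i4F labels named above. These clusters are named here only by their deposited labels. Within them, cells with a UMI of *Xcr1* or *Clec9a*, marker genes of a class of dendritic cells chosen after the values were seen, had *Klrk1* at 174 CPM (18 cells) and 113 CPM (22 cells) in WT and 124 CPM (71 cells) in CER 1. The cells without either UMI had 63.9, 67.2 and 39.1 CPM. *Klrd1* ran the other way in these 3 libraries, with 36.1, 28.2 and 65.6 CPM in the cells with such a UMI and 182, 116 and 152 CPM in those without. In i4F 3 only *Klrk1* differed in this way, at 126.5 CPM (31 cells) against 21.8 CPM, while *Klrd1* was at 48.2 against 40.2 CPM. In CER 2 only *Klrd1* did, at 43.4 CPM (24 cells, 2 UMIs) against 186 CPM, while *Klrk1* was at 43.4 against 46.0 CPM, and i4F 1 and i4F 2 held 5 and 1 such cells. The cells of a library share their cluster, so the values are a description with no test.

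The same CER label held the few UMIs of *Ncr1* (7 of 7 and 10 of 10) and most of those of *Klre1* (12 of 14 and 4 of 4), but only 7 of 15 of those of *Klra3* in CER 1. In i4F mice *Klra3* was also found under the label Macrophages_1, which held 4 of its 6 UMIs in i4F 1, with 1 under the NK label, and 9 of its 10 in i4F 2, with 0 under the NK label. With 2735 cells under that label in i4F 2, the 9 UMIs came to 1.22 CPM.

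The next comparison was of i4F with WT mice within the NK-labelled cells, summed per mouse. By the study's methods, WT and i4F cells were clustered and named apart, so the NK label was drawn separately for each genotype. A difference in where its borders fall cannot be told apart from genotype and was not tested. In i4F mice 5 members were lower: the activating receptor genes *Ncr1*, *Klra8* and *Klrb1c*, the inhibitory *Klra9* and the partner chain *Klre1*, with log2 fold changes (i4F over WT) of −2.84 to −3.57 at a threshold of 0.05 on the p adjusted over all genes. Among all 3574 genes tested, 44 (1.23%) were lower and 10 higher. *Klrk1*, *Klrd1*, *Klrc1* and *Cd226* did not pass the threshold, and *Klra3* did not pass the filter on low counts. A member could pass that filter through the WT mice alone, so the number called among those tested is an account and not a result about the list.

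Of the activating receptor genes, *Ncr1* (NKp46, a marker of NK cells) stood at 235 and 167 CPM in the WT mice and at 20.6, 3.3 and 19.9 CPM in the i4F mice. Every WT mouse lay above every i4F mouse, and i4F 2 rested on 1 UMI. The log2 fold change was −3.46 ± 0.459 (SE, n = 2 WT and 3 i4F mice; edgeR quasi-likelihood test, adjusted p = 0.0101). *Klra8* (Ly49H, a receptor for a viral protein) stood at 142 and 269.6 CPM in WT and at 25.8, 3.3 and 23.6 CPM in i4F. The groups did not overlap, and the change was −3.29 ± 0.517 (adjusted p = 0.0232). *Klrb1c* (NK1.1) stood at 229.9 and 111 CPM in WT and at 25.8, 9.91 and 24.3 CPM in i4F, a change of −2.84 ± 0.441 (adjusted p = 0.0231).

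*Klrk1* (NKG2D) was the most abundant member in every library but i4F 2 and i4F 3, at 509 and 295 CPM in WT and 175, 43.0 and 61.1 CPM in i4F. These groups did not overlap either, and the change of −2.13 missed the threshold (adjusted p = 0.0697). Of all 3574 genes tested, 796 (22.3%) stood lower in every i4F mouse than in every WT mouse. *Cd226* (DNAM-1, a receptor for nectin-like ligands) stood at 87.6 and 59.9 CPM in WT and 46.4, 19.8 and 36.8 CPM in i4F, with a change of −0.94 (adjusted p = 0.345). Its WT and i4F values did not overlap, but the nearest values were closer than the 2 WT mice were to each other.

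Of the inhibitory receptor genes, *Klra9* (Ly49I) stood at 169.7 and 107 CPM in WT and 15.5, 3.3 and 11 CPM in i4F, a change of −3.57 ± 0.448 (adjusted p = 0.00749). *Klra3* (Ly49C) had 13 and 7 UMIs in WT and 1, 0 and 12 UMIs in the i4F mice, which is 71.2 and 30.0 CPM against 5.15, 0 and 8.84 CPM. *Klrc1* (NKG2A) went from 21.4 to 126 CPM in WT and from 13.2 to 77.3 CPM in i4F, so that the groups overlapped (log2 fold change −1.17, adjusted p = 0.56). Its lowest and highest mouse in each group lay far apart.

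Of the partner chains, *Klre1* stood at 345 and 137 CPM in WT and 25.8, 3.3 and 30.2 CPM in i4F, a change of −3.24 ± 0.579 (adjusted p = 0.0293). *Klrd1* (CD94, the partner of NKG2A) stood at 252 and 137 CPM in WT and 92.7, 116 and 81.7 CPM in i4F, a change of −0.89 (adjusted p = 0.271). In i4F 2 and i4F 3 *Klrd1* was thereby the most abundant of the 10 genes in UMIs, of which each transcript gives 1 whatever its length.

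**Figure D2:**
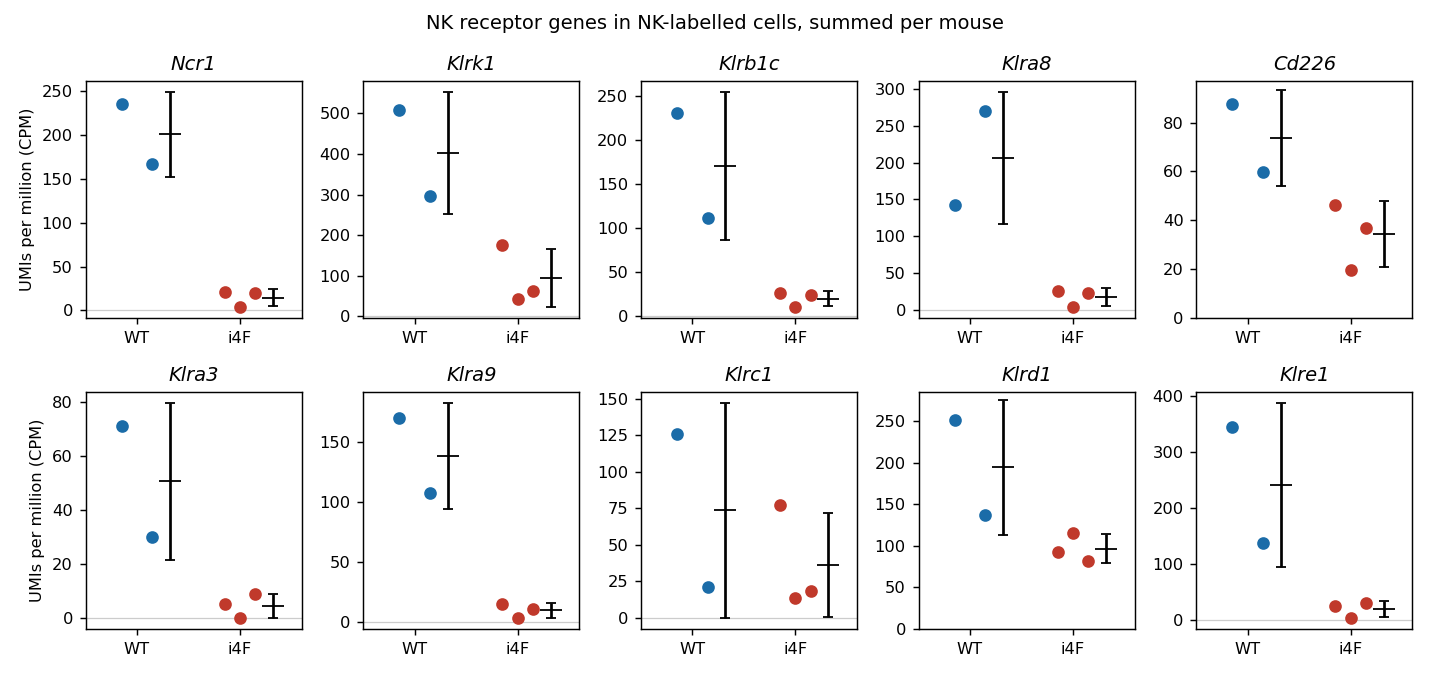
CPM in NK-labelled cells (y axis, a linear scale that differs between panels) for the 10 genes, with 1 point per mouse and the mean ± SD beside the points of the 2 WT and 3 i4F mice. *Ncr1*, *Klra8*, *Klrb1c*, *Klra9* and *Klre1* show no i4F mouse above 30.2 CPM and no WT mouse below 107 CPM, and *Klrc1* overlaps.

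The calls depended on single mice. Without WT 1 only *Klra8* passed and 9 genes in all were lower, without i4F 2 only *Ncr1* passed among 7 lower genes, without WT 2 or with the library name series as a term *Klra8* was lost, and the direction stayed negative for these 5 genes under all 11 alternatives. With no filter on low counts, 164 genes (0.93%) were lower, and *Klrk1* (adjusted p = 3.65e-06) and *Klra3* (adjusted p = 0.0086) joined them. *Klrk1* was also called with DESeq2, under a replicate block, without WT 2 and without i4F 1, thus in 5 of 12 settings, with adjusted p from 3.65e-06 to 0.406 over them.

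Markers of other cell types were summed in the same cells, and none of the 3 macrophage and 12 T cell markers that could be tested passed the threshold. Of the 7 macrophage markers, 0 and 4 had a UMI in NK-labelled cells of the WT mice and 6, 6 and 7 in those of the i4F mice, with a summed level of 0 and 55.6 CPM against 634, 327 and 163 CPM. The 12 T cell markers summed to 5052 and 5423 CPM in WT and to 5038, 4590 and 6703 CPM in i4F, so that the groups overlapped. The 5 neutrophil markers, none of which could be tested, were at 0 in WT and at 8.1 to 314 CPM in i4F. The part of the cell mixture in the lower receptor levels was not tested by these sums, since fewer cells of a type and less RNA per cell cannot be told apart in a sum over a label that holds several types.

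To ask on which side of the mixture the members lie, the NK-labelled cells of each mouse were divided into those with and without a UMI of a CD3 gene. The cells without one numbered 27 and 44 in WT and 82, 125 and 180 in i4F. With the mouse as a block, 6 members were higher in the cells without a CD3 UMI: *Klra8*, *Ncr1*, *Klrb1c*, *Klra9*, *Klre1* and *Klrk1*. Among 2504 genes tested, 91 (3.63%) were higher and 42 (1.68%) lower, and the latter include the CD3 genes that made the split. A member could pass the filter on low counts through the cells without a CD3 UMI alone. The number called is therefore an account and not a result about the list.

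*Klra8* was nearly confined to the cells without a CD3 UMI, which held 26 of 26 and 59 of 63 of its UMIs in the WT mice and all 5, 1 and 32 in the i4F mice. The log2 fold change between the sides was 6.07 (adjusted p = 8.32e-07), and it is a fitted value against sides at 0 UMIs in 4 of the 5 mice. For *Ncr1* the cells without a CD3 UMI held 32 of 43 and 38 of 39 UMIs in WT and 4 of 4, 1 of 1 and 22 of 27 in i4F, a change of 3.74 (adjusted p = 8.6e-05). *Klrb1c* rose by 3.22 (adjusted p = 0.000324), *Klra9* by 2.86 (adjusted p = 0.0362), *Klre1* by 2.28 (adjusted p = 0.00546) and *Klrk1* by 1.70 (adjusted p = 0.00178). *Klra9* was the only one of the 6 to lose its call when a mouse was left out, WT 2 or i4F 3.

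*Cd226* differed between the sides in opposite directions in different mice. It stood at 81.1 and 119 CPM in WT cells without a CD3 UMI and at 92.0 and 26.7 CPM in those with one. In i4F it stood at 32.1, 0 and 46.2 CPM without a CD3 UMI and at 53.1, 28.5 and 35.2 CPM with one. The fitted change was 0.20 ± 0.529 (adjusted p = 0.91). Cells with a CD3 UMI held 41 of the 50 *Cd226* UMIs and 80 of the 111 *Klrd1* UMIs of i4F 3. *Klrd1* (0.96, adjusted p = 0.0657), *Klrc1* (1.48, adjusted p = 0.143) and *Klra3* (3.06, adjusted p = 0.0549) did not pass. Whether the division differed between genotypes was tested as an edgeR interaction added after seeing the data, and no member passed (smallest adjusted p = 0.434, for *Klra8*). In that fit 9 of 2504 genes (0.359%) were relatively higher without a CD3 UMI in i4F, and 2 were lower. The T cell genes *Trac*, *Trbc2* and *Trdc* were among the 9, so the division itself differed between genotypes for these genes.

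**Figure D3:**
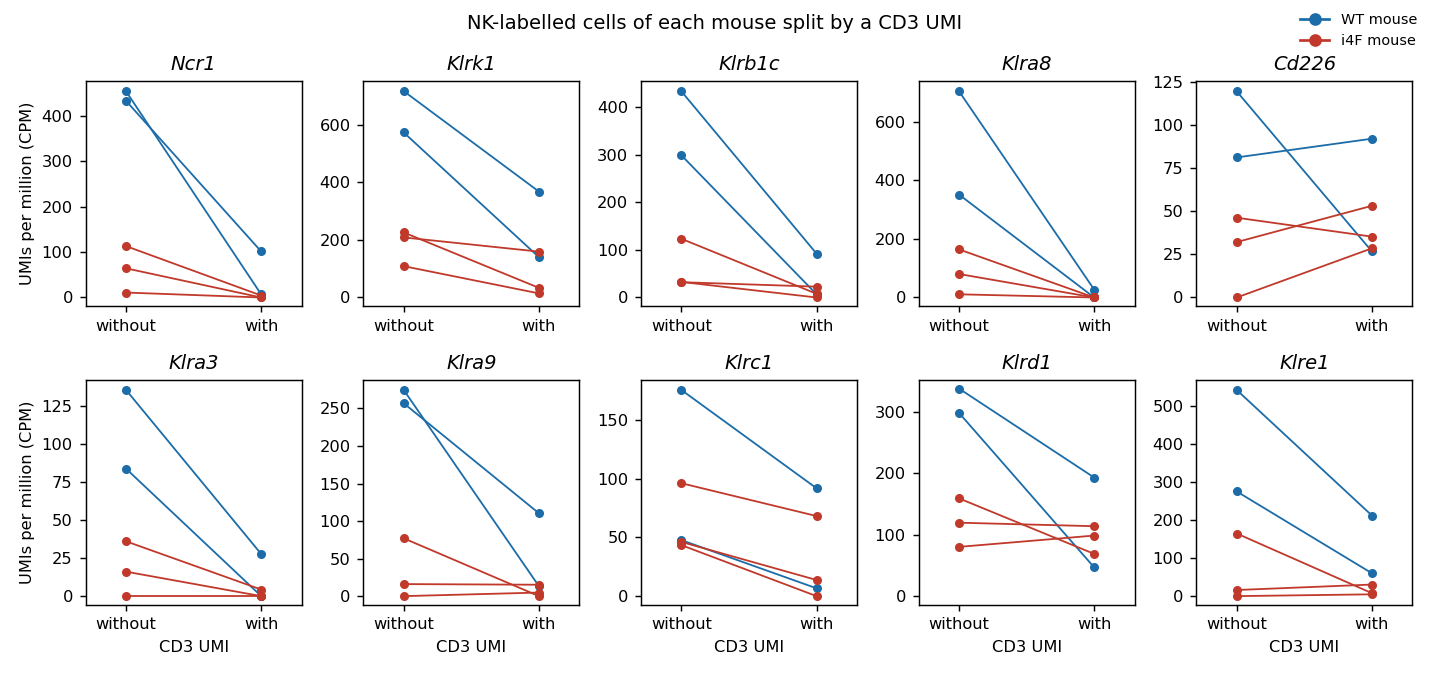
CPM (y axis, linear, a scale for each panel) in NK-labelled cells without and with a UMI of a CD3 gene (x axis), with 1 line per mouse. *Klra8* falls to 0 on the CD3 side in 4 of 5 mice, and *Cd226* has lines in both directions.

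The other fixed lists were divided along the same line. Their genes could also pass the filter through 1 side alone, so the counts are a description. Of the 10 measured cytotoxic effectors and NK regulators, 6 were higher without a CD3 UMI, among them *Gzma* (granzyme A, 5.54, adjusted p = 2.18e-09), *Xcl1* (1.57, adjusted p = 0.0327) and *Ccl5* (1.06, adjusted p = 2.69e-05), and the median of the list was 1.49 against −0.007 over all genes. Of 11 other NK receptor genes 5 were higher, including *Il2rb* (0.93, adjusted p = 0.00501), and of 14 adaptor and signalling genes 2 were higher, *Fcer1g* (2.76, adjusted p = 6.26e-06) and *Tyrobp*, and *Lat*, an adaptor of the T cell receptor, was lower (−1.26, adjusted p = 0.000474). Of the 8 type 2 innate lymphoid markers 6 were also higher without a CD3 UMI, among them *Calca* (3.49, adjusted p = 0.00108) and *Areg* (1.52, adjusted p = 0.000243). The cells without a CD3 UMI are thus no pure NK set.

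Within the cells without a CD3 UMI, i4F and WT were compared again. The 7 members that could be tested stood lower in every i4F mouse than in every WT mouse, and none passed the threshold. So did 366 of all 1474 genes tested (24.8%), and a member could pass the filter on low counts through the WT mice alone. Of the 1474 genes 17 (1.15%) were lower by the test, 256 genes had an unadjusted p under 0.05, and DESeq2 called 19 genes lower, *Klrk1* and *Ncr1* among them. *Ncr1* stood at 433 and 454 CPM in WT and 64.2, 10.9 and 113 CPM in i4F, a change of −2.50 ± 0.549 (adjusted p = 0.0594). *Klrk1* stood at 717 and 573 CPM in WT and 209, 109 and 226 CPM in i4F, a change of −1.69 ± 0.363 (adjusted p = 0.0575). The other 5 members tested had changes between −1.19 (*Klrd1*) and −2.52 (*Klra9*), with adjusted p between 0.105 and 0.235.

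In i4F mice a cell without a CD3 UMI was less sure to lack CD3 transcripts. Its median was 666, 655 and 1056.5 UMIs in i4F against 2267 and 1715 in WT, and the T cell markers summed to 2166, 2763 and 3035 CPM against 1068 and 1600 CPM. When only cells with a UMI of *Gzma*, *Nkg7* or *Prf1* and no CD3 UMI were kept, a choice made after seeing the data, 16 and 26 WT cells and 21, 27 and 70 i4F cells remained. In these cells *Ncr1* (−2.13) and *Klra8* (−2.13) stood lower in i4F. WT 1 lay under the minimum of 20 cells and was left out, so the fit held 1 WT mouse. A lone WT mouse shows no spread, so the share called lower, 1.17% of 937 genes, is not read as a result. *Gzma* and *Prf1*, used to choose these cells, were themselves lower in the NK-labelled cells of i4F mice. Library i4F 3 held the highest level of every member but *Klrc1* among the i4F mice in cells without a CD3 UMI. The share of all genes for which it did so in these cells was not counted. Without i4F 3, 6 members passed, *Ncr1*, *Klrk1*, *Klrb1c*, *Klra8*, *Klra9* and *Klre1*, among 33 of 1300 genes (2.54%).

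**Figure D4:**
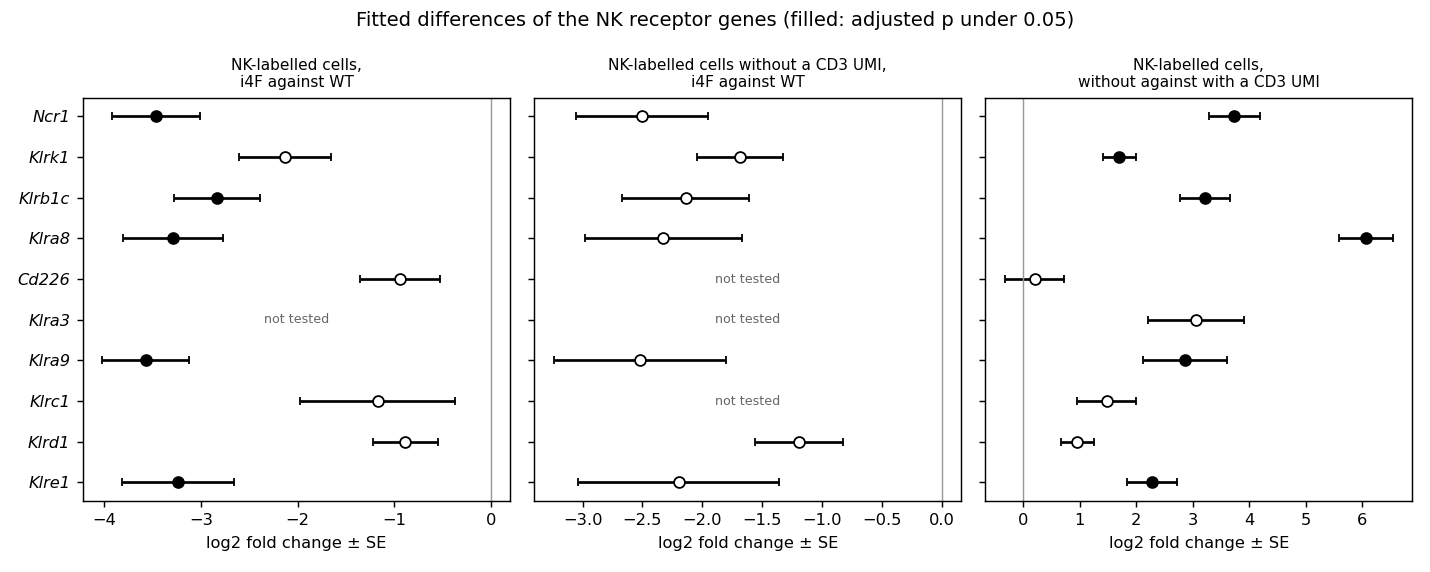
Log2 fold change ± SE (x axis) of the 10 genes in 3 comparisons, filled where the adjusted p was under 0.05. All tested genes lie left of 0 in both comparisons of i4F with WT, and 6 of 10 are filled to the right of 0 in the division by a CD3 UMI.

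Of the UMIs of the 8 inhibitory and activating members in NK-labelled cells, the inhibitory ones (*Klra3*, *Klra9*, *Klrc1*) made up 23.3% in WT 1, 14.9% in WT 2 and 25.0%, 17.2% and 18.8% in i4F 1 to i4F 3. The mean was 19.1% ± 5.96 (SD, n = 2) in WT and 20.3% ± 4.11 (SD, n = 3) in i4F, and the groups overlapped (difference 1.21 percentage points, exact two-sided permutation test, p = 0.8). The share in i4F 2 rested on 5 of 29 UMIs (95% exact binomial interval 5.85 to 35.8%). When *Klrd1* was also counted as inhibitory, WT mice gave 33.9% and 24.6%, and i4F mice 39.4%, 62.5% and 42.0%, without overlap (exact permutation, p = 0.2, below which 2 against 3 mice cannot go).

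UMIs of 3 or more members were found in 25 of 72 (34.7%) and 24 of 121 (19.8%) NK-labelled WT cells, with up to 9 members in a cell. Among NK-labelled i4F cells 3 of 194 (1.55%), 2 of 342 (0.585%) and 33 of 993 (3.32%) did, with up to 6. No WT mouse lay below an i4F mouse. Depth differed between these cells, so each was thinned at random to 500 UMIs, leaving 68, 120, 174, 294 and 961 cells. UMIs of 2 or more members were then found in 23.5% and 16.7% of WT cells and in 2.87%, 1.02% and 2.50% of i4F cells. The share with a UMI of any member was then 35.3% and 26.7% in WT and 14.9%, 9.86% and 8.85% in i4F, against 51.4% and 37.2%, and 27.3%, 14.0% and 19.7%, before thinning.

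The means after thinning were 31.0% ± 6.1 (SD, n = 2) and 11.2% ± 3.27 (SD, n = 3), a difference of −19.8 percentage points (permutation test over all 10 arrangements of the mice, exact and two-sided, p = 0.2, again the lowest within reach). All WT mice lay above all i4F mice. In cells labelled B_lymphocytes, which should lack these genes, the thinned share was 0 of 46 and 0 of 111 cells in WT, which allows up to 6.52% and 2.7%, and 0.597%, 0 of 140 (up to 2.14%) and 0.32% in i4F, at median depths of 616 to 2913.5 UMIs before thinning. The intervals and limits cover counting error only.

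**Figure D5:**
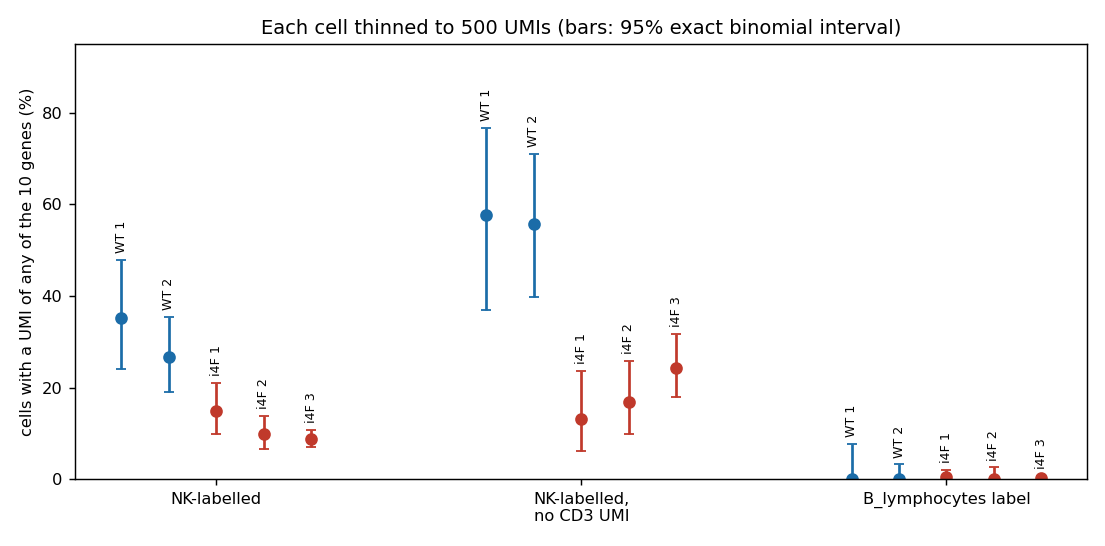
Percent of cells with a UMI of any of the 10 genes after thinning to 500 UMIs (y axis) for NK-labelled cells, those without a CD3 UMI and cells labelled B_lymphocytes (x axis), with 1 point and its 95% exact binomial interval per mouse. Among NK-labelled cells WT 1 and WT 2 lie at 35.3% and 26.7% and the i4F mice at 8.85 to 14.9%, and B_lymphocytes lie at or near 0.

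Members met in the same cells. Over the 1722 NK-labelled cells, 32 had UMIs of both *Ncr1* and *Klrb1c*, where the product of their shares gives 2.3 cells, and 38 had both *Klrb1c* and *Klre1*, where it gives 2.92. The 2 inhibitory Ly49 genes *Klra3* and *Klra9* met in 11 cells against 0.537, with part of their 3′ sequence shared as given above. *Cd226* was nearer to the product of the shares: 9 cells had *Cd226* and *Ncr1* against 2.88, and 3 had *Cd226* and *Klra8* against 2.19. Cells of different depth and genotype are pooled here, which alone raises such counts, so no test was made.

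The last comparison was of the whole tissue, where the level of a member follows both the number of cells that carry it and the RNA per cell, which cannot be told apart. Over all cells no member differed between i4F and WT in the edgeR fit of the 7 mice, in which 0 of 18340 genes (0%) were lower and 0 higher, 6383 had an unadjusted p under 0.05, and DESeq2 called 1869 lower and 2482 higher, no member among them. Without TMM, the scaling of libraries for their composition, 1949 genes were lower and 456 higher, and the median over all genes moved from 0.04 to −0.34.

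In the whole tissue the i4F mice split. *Ncr1* stood at 2.56 and 1.99 CPM in WT, at 0.0991 and 0.0265 CPM in i4F 1 and i4F 2, and at 1.875 CPM in i4F 3. *Klrk1* stood at 8.14 and 5.62 CPM in WT, 2.0 and 1.75 CPM in i4F 1 and 2, and 8.86 CPM in i4F 3. *Klra8* stood at 1.55 and 3.05 CPM in WT, 0.0826 and 0.0265 CPM in i4F 1 and 2, and 2.26 CPM in i4F 3. Cells with a UMI of *Ncr1*, *Klrb1c* or *Klre1* were 29 of 4327 (0.67%) and 31 of 6326 (0.49%) in WT and 23 of 9811 (0.234%), 7 of 8218 (0.0852%) and 69 of 7614 (0.906%) in i4F. For all 10 genes the value of i4F 3 lay above those of both other i4F mice, as it did for 8043 of all 18340 genes tested (43.9%). For *Klrk1*, *Klra3*, *Klrc1*, *Klrd1* and *Cd226* it also lay above those of both WT mice, as for 1683 of all genes (9.18%). Summed markers of T cells (21.6, 49.5 and 668 CPM in i4F 1 to i4F 3), B cells (366, 540 and 3886 CPM) and dendritic cells (210, 129 and 1423 CPM) were also highest in i4F 3. So was the 1 measured gene of the 10 acinar markers (7.29, 39.6 and 589 CPM). Summed markers of macrophages (5788, 4792 and 2261 CPM) and of type 2 innate lymphoid cells (229, 206 and 200 CPM) were lowest in i4F 3. Those of neutrophils were highest in i4F 2 (326, 1245 and 443 CPM). The part of these cells in the members' levels was not tested.

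Without i4F 3 the fit gave 7 members lower, *Klra8* (−4.83), *Klra9* (−4.80), *Ncr1* (−4.57), *Klre1* (−4.14), *Klrb1c* (−3.27), *Cd226* (−1.73) and *Klrk1* (−1.47), with adjusted p from 0.00167 to 0.0313. In that fit 4967 of 19180 genes (25.9%) were lower and 4576 higher, so a lower value was common among all genes. *Klrd1* was at −0.38 (adjusted p = 0.29) there. With all 7 mice *Klrd1* stood at 0.68 (adjusted p = 0.51) and *Cd226* at 0.61 (adjusted p = 0.744), so both turned sign when i4F 3 was left out.

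In the CER mice 9 of the 10 members stood below both WT mice in the whole tissue, and *Klrd1* stood above them. Lying below both WT mice was common, since 9561 of all 18340 genes tested (52.1%) did so and 4265 (23.3%) lay above them. In the same sums all 7 macrophage markers were higher in CER, at 11970 and 9855 CPM together against 744 and 1553 CPM in WT. The 5 B cell markers summed to 60.7 and 20.8 CPM in CER against 517 and 1281 CPM in WT, and the 12 T cell markers to 21.5 and 17.6 CPM against 58.9 and 70.5 CPM, with none of either list past the threshold. Their part in the members' levels was not tested. No member passed the threshold, in a fit where 944 genes (5.15%) were higher and 722 (3.94%) lower. *Ncr1* was at 0.108 and 0.585 CPM and *Klrk1* at 2.15 and 1.7 CPM in CER. *Klra9* had 7 and 0 UMIs there, against 31 and 28 in WT, and showed the largest change (−3.90, adjusted p = 0.148). *Klrd1* was at 6.25 and 6.08 CPM in CER against 5.29 and 3.93 CPM in WT (0.83, adjusted p = 0.442), with 388 of 405 and 99 of 104 of its UMIs under the CER label B_lymphocytes described above. Without TMM 652 genes were higher and 2262 lower. Without i4F 3, which enters this fit through the shared estimate of the spread, 6 members were lower (*Klrk1*, *Klra8*, *Klra9*, *Klrb1c*, *Klre1* and *Ncr1*), among 4801 of 19180 genes (25%), and *Klrd1* was higher.

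The i4F and CER mice were also compared directly, and no member and 0 of 18340 genes passed in either direction, with 2637 genes at an unadjusted p under 0.05 and 528 higher and 462 lower by DESeq2. Without i4F 3 *Klrd1* was lower in i4F than in CER (−1.21, adjusted p = 0.0456), in a fit where 784 of 19180 genes were lower and 868 higher. The 3 mouse groups were also spread unevenly over the series of library names: WT 1 and the i4F mice carry AL names, and WT 2 and the CER mice AM names. Within the AL names *Ncr1* in the whole tissue was 2.56 CPM in WT 1 against 0.0265 to 1.875 CPM in i4F, and within the AM names 1.99 CPM in WT 2 against 0.108 and 0.585 CPM in CER. *Klra9*, *Klrb1c* and *Klre1* also stood below WT 1 in every i4F mouse. In i4F 3 they were at 1.164, 2.586 and 3.555 CPM against 1.843, 2.616 and 3.864 CPM in WT 1. The 95% counting intervals of each pair overlapped. Of all 18340 genes tested, 7648 (41.7%) stood below both WT mice in every i4F mouse. The share below WT 1 alone was not counted. For *Klrk1*, *Klra8*, *Klra3*, *Klrc1*, *Klrd1* and *Cd226*, i4F 3 stood above WT 1, for *Klrk1* at 8.86 against 8.14 CPM.

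Genes with a pattern most like the members were sought over 92 sums of label and library, as a Pearson correlation of log2(CPM + 10) among 19307 genes. *Ncr1* and *Klrb1c* were each other's nearest gene (r = 0.984), and *Klre1* was nearest to *Klrb1c* (0.980). *Klrd1* was nearest to *Klrk1* (0.919), and *Klrk1* to *Klrb1b* (0.953), which encodes an inhibitory NK1.1 relative. *Klra9* was nearest to *Ccr8* (0.992), *Klra8* to *Samd3* (0.985), *Klra3* to the pseudogene *Klra13-ps* (0.976), *Klrc1* to *Xlr4c* (0.959) and *Cd226* to *Gata3* (0.908). Between members, r ran from 0.523 for *Klra9* with *Klrd1* to 0.984, and the lowest values were those of *Klrd1* with the Ly49 genes. The sums share libraries and depth, and most of them are near 0 for these genes.

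The other genes of the pathway in NK-labelled cells were read against the 44 of 3574 tested genes (1.23%) that were lower in i4F, a count that ran from 7 to 79 with 1 mouse left out. A gene could be tested through its level in the WT mice alone, so the counts below are a description. Of 30 other NK receptor genes listed, 14 could be tested and 3 were lower (*Klra4*, *Klra7* and *Klrg1*), and the most abundant, *Il2rb*, a subunit of the interleukin receptors that sustain NK cells, did not pass (−0.46, adjusted p = 0.643). Of 16 adaptor and signalling genes tested, the 2 lower ones were *Tyrobp* (DAP12) and *Fcer1g*, which are among the adaptors that carry signals of Ly49H and NKp46. *Fcer1g* stood at 936 and 706 CPM in WT and 319, 119 and 166 CPM in i4F (−1.96, adjusted p = 0.0312), while *Hcst* (DAP10, an adaptor of NKG2D) stood at 230 and 449 CPM in WT and 546, 453 and 417 CPM in i4F (0.56, adjusted p = 0.495). Of 10 effectors and regulators tested, 3 were lower, *Gzma* (−3.37, adjusted p = 0.0274), *Prf1* and *Ifng*, and *Nkg7* was at −1.36 (adjusted p = 0.0672). None of the 12 T cell markers and none of the 8 type 2 innate lymphoid markers passed, with medians of 0.45 and −1.44.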

How the data were processed

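The authors aligned 10x Genomics 3′ v3 reads to mm10 (GRCm38) with Cell Ranger, corrected ambient RNA with SoupX, filtered cells on gene number and mitochondrial share, and named clusters made in Seurat. WT and i4F cells were clustered and named separately. The deposited cells have at least 150 genes and at most 4.997% mitochondrial UMIs. They deposited UMI counts per gene and cell, 1 table a condition. All values were whole, and whether they precede the SoupX step is not given in the sources used here. Doublets were neither called nor removed here. Counts were summed per mouse and tested with edgeR 4.0.16 (quasi-likelihood F test, TMM, filterByExpr, two-sided, Benjamini-Hochberg over all genes, threshold 0.05, at least 20 cells a mouse). DESeq2 1.42.0 was an alternative. The SE is the change divided by the square root of F. Shares were compared with exact permutation tests. The edgeR fits were tested on simulated data with 200 genes changed 4-fold, of which 91% were recovered in NK-labelled cells (3574 genes), 86.5% without a CD3 UMI (1474 genes) and 36% over all cells (18340 genes), in i4F against WT. False calls numbered 6, 10 and 1 in that order. Every simulated gene had the same spread between mice and no library stood apart, so recovery in the real data can be lower. The 10 genes were always named, others only as counts over lists with up to 4 abundant examples and all genes called where few. The members and lists were chosen with earlier results of these data known. Nothing in the labels says more of the mice than that they are separate samples. The p-values are set against the spread between mice, all 7 over all cells and the WT and i4F mice in NK-labelled cells. The division by a CD3 UMI is within mice. Depth is given with the values.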

Additional observations from a re-analysis of the deposited data

How the results depend on the processing

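The 5 members lower in NK-labelled i4F cells were negative under each of the 11 alternatives run on that comparison, and their calls depended on WT 1 and i4F 2. *Klra8* was also not called without WT 2 or with the library name series as a term. Under the alternatives, over all cells 19 of the members' changes between i4F and CER and 11 of those between i4F and WT turned sign, most of them in fits that drop i4F 3. The cause was not tested. Counts below are genes higher, then lower.

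Over all cells, i4F against WT had 0 and 0 in the main fit, 2482 and 1869 with DESeq2, 456 and 1949 with library totals without TMM, 1199 and 877 with no filter, and 3899 and 4449 with a replicate block. CER against WT had 944 and 722, then 2850 and 2634 with DESeq2, 652 and 2262 without TMM, 1466 and 1364 with no filter, 3423 and 4051 with a replicate block, 3807 and 4217 in a fit of these 2 groups alone, where 7 members passed (*Klrd1* higher, 6 lower), and 0 and 0 with the library name series as a term. i4F against CER had 0 and 0, then 528 and 462 with DESeq2, 54 and 46 with no filter, 290 and 231 with a replicate block, and 1 higher in a fit of these 2 groups alone. NK-labelled cells had 10 and 44, then 31 and 69 with DESeq2, 70 lower without TMM, 83 and 164 with no filter, 68 and 109 with a replicate block and 33 higher with the series term. Cells without a CD3 UMI had 12 and 17, then 21 higher with DESeq2, 29 lower without TMM and 53 and 85 with no filter. They had 78 and 81 with a replicate block, 34 and 26 with the series term, and 47 lower when the CD3 UMI was sought after thinning. The fit in cells with an effector UMI, a set defined once the data had been seen, held 1 WT mouse, so its counts are not given. The division by a CD3 UMI had 91 and 42, then 14 lower with DESeq2, 148 lower with no filter, 4 and 5 with no replicate block (here the mouse), and 50 and 12 after thinning.

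With 1 mouse left out, the ranges were 0 to 4576 higher and 0 to 4967 lower for i4F against WT, 0 to 4108 and 0 to 4801 for CER against WT, and 0 to 868 and 0 to 784 for i4F against CER. They were 1 to 34 and 7 to 79 in NK-labelled cells, 0 to 34 and 0 to 33 in cells without a CD3 UMI, and 58 to 98 and 21 to 45 for the division. For CER against WT the 7 members passed without i4F 3, where 4108 genes were higher, and 0 genes were called without WT 1, WT 2, CER 1, CER 2 or i4F 2. The difference in inhibitory share ran from −3.01 to 5.42 percentage points and was −1.13 without i4F 1. The difference in the share of cells with a member UMI ran from −24.1 to −15.4. In cells without a CD3 UMI, 3 members were lower without TMM (29 of 1474 genes), 6 with no filter (85 of 13554) and 6 after thinning (47 of 1965). A lone WT mouse was assumed to vary like the i4F mice.

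The deviations of same-numbered mice correlated at −0.076, 0.002, −0.52, −0.52, 0.135 and −0.088 over 13691 genes, none above 0.135. The 2 values of −0.52, of WT with CER, are 1 value by construction, since each of these groups has 2 mice. Whether the mice were paired cannot be settled by such values. A replicate block leaves i4F 3 without a partner and so drops it, and 6 members then passed over all cells for i4F against WT (*Klrk1*, *Klra8*, *Klra9*, *Klrb1c*, *Klre1*, *Ncr1*), where 4449 of 19655 tested genes were lower. It gave 7 in cells without a CD3 UMI, where 81 of 2028 were lower, and 8 for CER against WT (*Klrd1* higher, 7 lower), where 3423 of 19655 were higher and 4051 lower. For i4F against WT over all cells, *Klrc1* was −1.42 under the block, −0.14 without TMM and −0.40 with the series term, *Klrd1* was −0.41 and *Cd226* −1.74 under the block. For i4F against CER under the block *Klrk1* was −0.0569, *Klra3* −0.25, *Klra8* −1.82, *Klra9* −0.90, *Klrb1c* −0.81, *Klre1* −0.91, *Ncr1* −1.83 and *Cd226* −0.49, and *Klrd1* was 0.0497 in cells with at least 500 genes.

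With 1 mouse left out, i4F against WT over all cells ranged from −1.47 to 0.0371 for *Klrk1*, −1.46 to 0.27 for *Klra3*, −0.40 to 1.65 for *Klrc1*, −0.38 to 1.08 for *Klrd1* and −1.73 to 1.17 for *Cd226*. i4F against CER ranged from −0.0721 to 1.45 for *Klrk1*, −0.24 to 1.81 for *Klra3*, −1.79 to 2.30 for *Klra8*, −0.98 to 6.38 for *Klra9*, −0.82 to 2.25 for *Klrb1c*, −0.92 to 2.94 for *Klre1*, −1.21 to 0.25 for *Klrd1*, −1.86 to 2.29 for *Ncr1* and −0.44 to 2.86 for *Cd226*. *Klrc1* in NK-labelled cells ranged from −1.999 to 0.57. Single UMIs in i4F 2 limit *Ncr1*, *Klra8*, *Klra9* and *Klre1* there.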
